A study of Mus musculus with 12 samples.

Results

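The expression of 10 genes that encode NF-κB subunits and regulators of their activity was followed in RNA-seq libraries of mouse kidney. The genes were Nfkb1, Rela, Nfkb2 and Relb, which encode subunits, Nfkbia, Nfkbie, Bcl3 and Nfkbiz, which encode proteins of the IκB family, Tnfaip3, a ubiquitin-editing enzyme, and Ikbke, a kinase. They were taken by symbol from the 24421 symbols of the files, and the transcript with the most counts stands for each gene. All 10 passed the filter on low counts in every comparison.

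The 12 libraries came from kidneys of male C57BL/6 mice (C57BL/6J background per the study's methods) aged 6 weeks, in 4 groups of 3: WT without an operation, Tet2-/- without an operation (both baseline), and WT and Tet2-/- after ischemia-reperfusion (IR). Per the study's methods, the pedicle of the right kidney was clamped for 60 min, the left kidney was removed, and tissue was collected 24 h after reperfusion. IR and the operation therefore cannot be told apart here, since no library came from sham-operated mice. The Tet2-/- mice are labelled as knockouts of Tet2, which encodes a 5-methylcytosine dioxygenase, and the sources used here do not give the deleted exons.

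NF-κB transcription factors are pairs of subunits held in the cytoplasm by IκB proteins. In the classical pathway the IKK kinase complex marks IκBα for destruction, and dimers of the Nfkb1 product and RelA enter the nucleus. In the alternative pathway the kinase NIK drives the processing of the Nfkb2 product and frees dimers with RelB. Several genes of the system, Nfkbia and Tnfaip3 among them, are themselves induced by NF-κB, and their products restrain it. In the injured kidney the pathway is known for its part in the inflammatory response of tubular and immune cells.

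The members were compared at their promoters. Promoter sequence was not used in the rule, but genes that NF-κB itself induces are among the feedback regulators, so the share with a site is not independent of the choice of genes. The κB decamer, the consensus that NF-κB dimers recognise, was searched on both strands in the 250 bases upstream of the deposited start of each representative transcript (mm9). It occurred upstream of 6 of the 10 members and of 7.75% of 24348 promoters searched. The median GC content was 63.2% in the windows of the members and 55.2% in all windows, and its part in the difference was not tested. Of these 6 genes, Nfkb2, Relb, Nfkbiz and Tnfaip3 rose after IR in the kidneys labelled Tet2-/-, and Nfkbia and Nfkbie did not. Bcl3 rose there without a match, and a link between matches and the rise was not tested. The matches are shown with up to 15 bases of flank on each side. They are written on the strand of the gene, 5′ to 3′, with the decamer in capitals.
Nfkb2, chr19:46379173-46379212, plus strand, decamer beginning 39 bases before the start: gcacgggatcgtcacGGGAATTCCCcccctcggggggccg
Nfkb2, chr19:46379201-46379226, plus strand, 11 bases before the start: ctcggggggccgaaaGGGGCTTTCCc
Relb, chr7:20214860-20214899, minus strand, 97 bases before the start: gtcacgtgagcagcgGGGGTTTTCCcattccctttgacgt
Relb, chr7:20214788-20214826, minus strand, 24 bases before the start: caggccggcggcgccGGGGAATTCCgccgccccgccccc
Nfkbia, chr12:56593639-56593678, minus strand, 29 bases before the start: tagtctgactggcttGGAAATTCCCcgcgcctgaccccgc
Nfkbie, chr17:45692528-45692567, plus strand, 106 bases before the start: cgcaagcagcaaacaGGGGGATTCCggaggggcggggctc
Nfkbiz, chr16:55838958-55838997, minus strand, 228 bases before the start: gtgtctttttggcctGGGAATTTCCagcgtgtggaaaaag
Tnfaip3, chr10:18735317-18735356, minus strand, 125 bases before the start: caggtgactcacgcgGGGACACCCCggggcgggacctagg
Tnfaip3, chr10:18735217-18735243, minus strand, 12 bases before the start: actggaatttccatcGGAAATCCCCct

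The first Nfkb2 match overlaps another match shifted by 1 base. The match of Nfkbia lies in the reverse orientation, as does the nearer match of Tnfaip3. No decamer was found in the windows of Nfkb1, Rela, Bcl3 and Ikbke. A match in this window is a description of the sequence and not evidence of binding.

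Library totals ranged from 51007366 to 107969888 counts. Tet2 measured 9.15, 6.25 and 7.33 FPKM (fragments per kilobase of transcript, scaled to library size) in WT baseline libraries and 9.25, 16.6 and 10.3 in those labelled Tet2-/-, so its level did not mark the genotype at baseline. The genotype is therefore given as the label throughout. After IR it measured 9.34, 3.97 and 3.86 in WT and 2.64, 3.20 and 1.76 in the libraries labelled Tet2-/-. Markers of the kidney were present, with summed proximal tubule markers of 2524 to 2679, 2285 to 2987, 1697 to 2251 and 606 to 839 FPKM in WT baseline, Tet2-/- baseline, WT IR and Tet2-/- IR. Summed neutrophil markers were 0.643 to 2.45, 1.87 to 3.04, 4.06 to 9.49 and 75.5 to 134 FPKM in the same order. Some libraries stood apart: adipocyte markers summed to 138 and 279 FPKM in WT baseline replicates 2 and 3 and to 602 in Tet2-/- IR replicate 3, WT IR replicate 3 was low in podocyte (2.10 FPKM), endothelial (5.53) and fibroblast (10.7) markers, and Tet2-/- IR replicate 3 was low in loop, distal and collecting duct markers (686 FPKM against 2554 and 3093).

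The order of the members at baseline was led by the inhibitor Nfkbia and by Rela. In WT baseline kidneys the mean was 30.8 ± 10.7 FPKM (SD, n = 3) for Nfkbia and 12.02 ± 1.94 for Rela. Below these lay Nfkb1 (4.92 ± 0.423), Nfkb2 (3.64 ± 0.436), Nfkbiz (3.52 ± 0.730), Bcl3 (2.01 ± 0.428), Relb (1.81 ± 0.406), Ikbke (1.28 ± 0.0235), Nfkbie (1.003 ± 0.0987) and Tnfaip3 (0.985 ± 0.125). Neighbours in this order overlapped in range for Nfkb2 and Nfkbiz, for Bcl3 and Relb, and for Nfkbie and Tnfaip3. After IR in the libraries labelled Tet2-/- the order was Nfkbia, Rela, Nfkb2, Bcl3, Nfkbiz, Nfkb1, Relb, Tnfaip3, Nfkbie and Ikbke, and the ranges of neighbours were apart only between Rela and Nfkb2 and between Relb and Tnfaip3.

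Of the 10 members, 9 had their highest group mean in the IR libraries labelled Tet2-/-, as did 48.6% of 16741 genes, and Nfkbia had it in WT baseline. For Rela, Relb, Nfkbiz and Tnfaip3 each of these 3 libraries lay above all of the other 9, as was so for 16.6% of the genes. Replicate 2 was the highest library of its group for all 10 members in both IR groups, and the share of all genes with this order was not counted. Tet2-/- IR replicate 2 was also highest of its group in summed macrophage, lymphocyte, endothelial, fibroblast and podocyte markers. It was not so in neutrophil, adipocyte or proximal tubule markers. These are whole-kidney measurements, in which fewer cells of a type and less RNA per cell cannot be told apart.

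**Figure D1:**
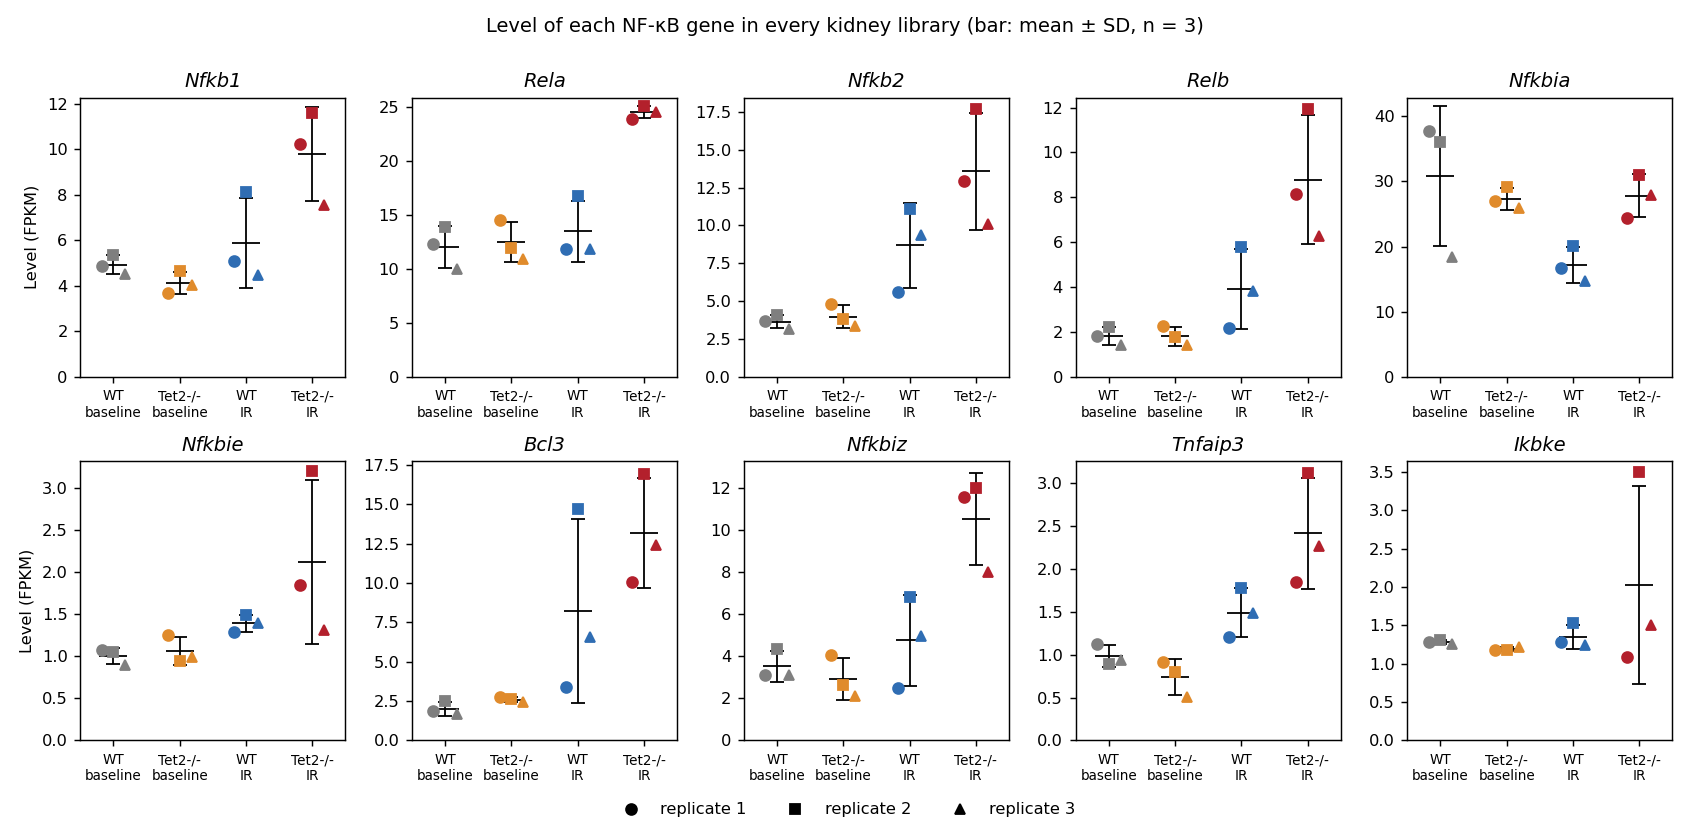
Level in FPKM (linear axis from 0, scaled for each gene) of the 10 members by group, with the 3 libraries of a group as points marked by replicate and the bar giving mean ± SD. Rela ran from 23.9 to 25.0 FPKM in the IR libraries labelled Tet2-/- and from 9.97 to 16.7 elsewhere, and Nfkbia was lowest in WT IR.

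A gene was called, and is said to have risen or fallen, where the adjusted p was under 0.05 and the log2 fold change lay beyond 1 in either direction in edgeR's quasi-likelihood test, with Benjamini-Hochberg adjustment over all genes tested. Fold changes below are edgeR's log2 values with their standard error (SE), which TMM normalization sets relative to most genes. On the FPKM scale the median gene stood 0.25 (log2) higher after IR in the libraries labelled Tet2-/-, against 0.04 after TMM, so ratios of FPKM exceed the fitted fold changes there. The 2 IR effects and the 2 genotype differences share libraries and are not independent of each other.

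Among the subunits, IR in the kidneys labelled Tet2-/- was accompanied by a rise of both genes of the alternative pathway, Nfkb2 and Relb, and by higher levels of Rela and Nfkb1 that stayed under the fold limit. In WT kidneys no subunit was called. No subunit gene was called between the genotypes, either at baseline or after IR.

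Relb (chr7:20191571-20214787, minus strand), the partner of the processed Nfkb2 product, had the largest fold change of these 4 subunit genes after IR in the kidneys labelled Tet2-/-, and Nfkb2 had it in WT. It measured 1.80, 2.23 and 1.41 FPKM in WT baseline, 2.26, 1.76 and 1.40 in Tet2-/- baseline, 2.18, 5.77 and 3.81 in WT IR and 8.15, 11.9 and 6.28 in Tet2-/- IR. The WT IR range overlapped that of baseline, whereas the Tet2-/- IR libraries lay above all others. Its log2 fold change after IR was 2.01 (SE 0.25, adjusted p = 0.000878) in the kidneys labelled Tet2-/- and 1.05 (SE 0.36, adjusted p = 0.154) in WT. Between the genotypes after IR it was 1.05 (SE 0.36, adjusted p = 0.107), which DESeq2 called (adjusted p = 0.033).

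Nfkb2 (chr19:46379227-46386580, plus strand) encodes a precursor that is itself an inhibitor until it is processed. Its levels were 3.67, 4.06 and 3.18 FPKM in WT baseline, 4.79, 3.82 and 3.33 in Tet2-/- baseline, 5.61, 11.1 and 9.34 in WT IR and 12.9, 17.7 and 10.1 in Tet2-/- IR. Both IR groups lay above both baseline groups, and the IR groups overlapped each other. The log2 fold change was 1.502 (SE 0.20, adjusted p = 0.00104) after IR in the kidneys labelled Tet2-/- and 1.20 (SE 0.26, adjusted p = 0.0605) in WT. A replicate block treated same-numbered libraries as pairs, although they come from different mice. With it the WT value was 1.15 and was called (adjusted p = 0.0293). The locus shares 4 bases with Psd, on the opposite strand, which measured 0.666 to 1.72 FPKM, and whether counting used strand is not given in the sources used here.

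Rela (chr19:5637490-5648130, plus strand), the transactivating subunit of the classical pathway, was the most even of the members after IR in the libraries labelled Tet2-/-. It measured 12.3, 13.8 and 9.97 FPKM in WT baseline, 14.5, 11.9 and 10.9 in Tet2-/- baseline, 11.9, 16.7 and 11.8 in WT IR and 23.9, 25.0 and 24.5 in Tet2-/- IR. The last group lay above all other libraries, and the first 3 overlapped. The log2 fold change after IR was 0.72 (SE 0.13, adjusted p = 0.00383) in the kidneys labelled Tet2-/- and 0.10 (SE 0.17, adjusted p = 0.771) in WT. Between the genotypes after IR it was 0.77 (SE 0.15, adjusted p = 0.0253), under the fold limit, and leaving out any library but WT IR replicate 2 took the adjusted p to between 0.0564 and 0.0984.

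Nfkb1 (chr3:135247619-135354511, minus strand), whose product pairs with RelA, measured 4.87, 5.37 and 4.52 FPKM in WT baseline, 3.66, 4.63 and 4.05 in Tet2-/- baseline, 5.06, 8.12 and 4.45 in WT IR and 10.2, 11.6 and 7.56 in Tet2-/- IR. WT IR replicate 2 was higher than the lowest Tet2-/- IR library. After IR the log2 fold change was 0.98 (SE 0.16, adjusted p = 0.00238) in the kidneys labelled Tet2-/-, just under the fold limit, and 0.18 (SE 0.21, adjusted p = 0.634) in WT.

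The remaining subunit gene, Rel, is most active in lymphoid cells and was at most 0.329 FPKM in any library. Its counts were 6.5 to 16 in Tet2-/- baseline and 13.5 to 109 in Tet2-/- IR, a log2 fold change of 2.35 (SE 0.63, adjusted p = 0.0204). In WT the value was -0.066 (SE 0.41, adjusted p = 0.942). The baseline libraries labelled Tet2-/- were low, at 0.036 ± 0.0044 FPKM against 0.117 ± 0.0369 in WT (log2 difference -1.61, adjusted p = 0.242), and Tet2-/- IR replicate 3 (0.056 FPKM) lay below every WT library.

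Of the summed FPKM of the 5 subunit genes, Rela made up 53.3% ± 1.28 (SD, n = 3) in WT baseline and 55.6% ± 1.84 in Tet2-/- baseline, and 42.6% ± 4.46 and 43.7% ± 6.52 after IR. Nfkb2 went from 16.2% ± 0.355 and 17.7% ± 1.13 to 26.9% ± 4.54 and 23.6% ± 2.91. Relb went from 7.99% ± 0.675 and 7.98% ± 0.940 to 11.8% ± 2.67 and 15.2% ± 2.51. Within each genotype every IR library had a larger share of Nfkb2 and of Relb than any baseline library, for Relb in WT by a narrow margin (8.79% against 8.69%), while the sum of the 5 genes ran from 24.8 to 41.9 FPKM in WT IR and from 48.5 to 66.6 in Tet2-/- IR.

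**Figure D2:**
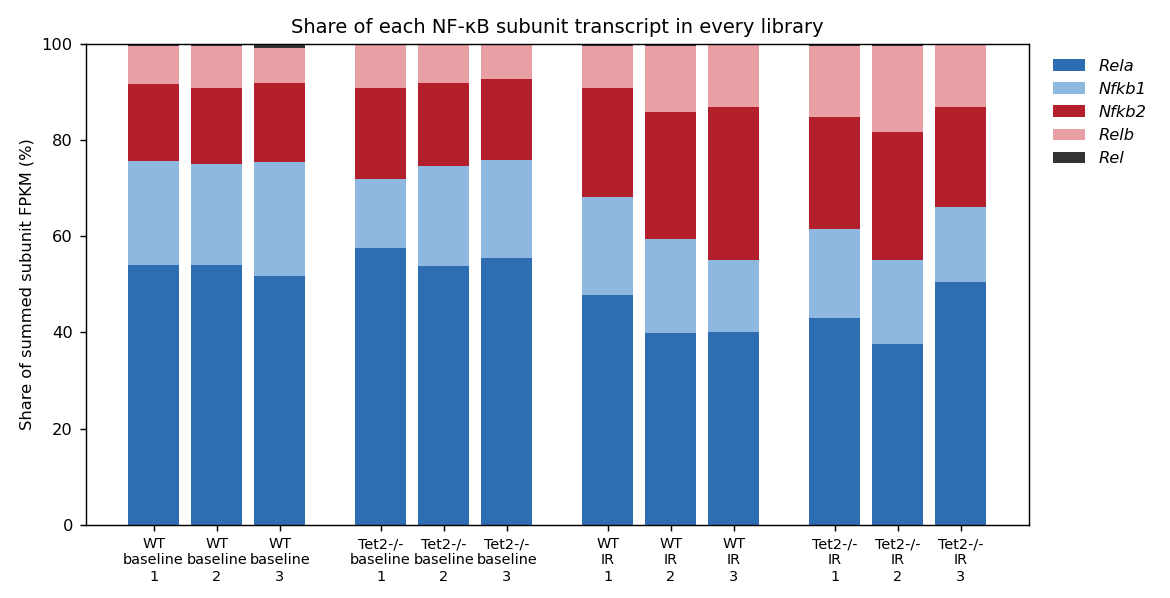
Share of each subunit gene in the summed FPKM of Nfkb1, Rela, Nfkb2, Relb and Rel, in percent, per library. Rela made up 51.8 to 57.5% of the sum at baseline and 37.6 to 50.6% after IR.

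This balance was expressed within each library as the log2 ratio of Nfkb2 plus Relb to Nfkb1 plus Rela, which does not depend on library scaling. The mean was -1.64 ± 0.0245 in WT baseline, -1.53 ± 0.153 in Tet2-/- baseline, -0.66 ± 0.415 in WT IR and -0.66 ± 0.334 in Tet2-/- IR. The 3 IR libraries lay above the 3 baseline libraries in both genotypes, with differences of 0.98 and 0.88. An exact permutation test, two-sided, gave p = 0.1 for both (adjusted p = 0.2 over 4 comparisons), the smallest value that 3 against 3 allows. The genotypes differed by 0.0047 after IR (exact p = 0.9).

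The inhibitors of the classical type, Nfkbia and Nfkbie, were both present in every library. Neither was called in any comparison, and relative to the subunits their summed transcripts, mostly Nfkbia, were fewer in every IR library than in any baseline library.

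Nfkbia (chr12:56590396-56593634, minus strand) encodes IκBα, the inhibitor that NF-κB induces and whose destruction frees it. It measured 37.8, 36.1 and 18.4 FPKM in WT baseline, 26.9, 29.2 and 25.9 in Tet2-/- baseline, 16.7, 20.1 and 14.6 in WT IR and 24.4, 31.0 and 27.97 in Tet2-/- IR. WT baseline replicate 3 lay within the WT IR range, and the other 2 lay well above it. The log2 fold change after IR was -0.91 (SE 0.26, adjusted p = 0.11) in WT and -0.24 (SE 0.12, adjusted p = 0.147) in the kidneys labelled Tet2-/-, the latter being 0.02 on the log2(FPKM + 1) scale. Without WT baseline replicate 3 the WT value was -1.16 and was called (adjusted p = 0.0373), as were 0.536% of all genes. After IR, Nfkbia was higher in all 3 libraries labelled Tet2-/- than in any WT library, by 0.60 (SE 0.13, adjusted p = 0.0353), which is under the fold limit. Leaving out any library but WT IR replicate 2 took that adjusted p to between 0.0563 and 0.132.

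Nfkbie (chr17:45692649-45700117, plus strand), which encodes IκBε, measured 1.07, 1.04 and 0.890 FPKM in WT baseline, 1.25, 0.937 and 0.993 in Tet2-/- baseline, 1.29, 1.49 and 1.39 in WT IR and 1.84, 3.20 and 1.31 in Tet2-/- IR. Its highest value came from a single library, Tet2-/- IR replicate 2. The log2 fold change after IR was 0.72 (SE 0.32, adjusted p = 0.104) in the kidneys labelled Tet2-/-, and 0.38 without that library. In WT it was 0.42 (SE 0.21, adjusted p = 0.284). Nfkbib, the remaining classical IκB gene, had means of 14.6 ± 1.20, 14.9 ± 0.593, 19.1 ± 1.27 and 24.6 ± 2.92 FPKM in WT baseline, Tet2-/- baseline, WT IR and Tet2-/- IR, with log2 fold changes after IR of 0.34 (adjusted p = 0.161) and 0.47 (adjusted p = 0.0403).

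The log2 ratio of Nfkbia plus Nfkbie to the 4 subunits Nfkb1, Nfkb2, Rela and Relb was 0.45 ± 0.393 in WT baseline, 0.35 ± 0.166 in Tet2-/- baseline, -0.76 ± 0.267 in WT IR and -0.92 ± 0.175 in Tet2-/- IR. It differed by -1.21 and -1.27 after IR, again without overlap (exact permutation p = 0.1, adjusted p = 0.2), and by -0.16 between the genotypes after IR (exact p = 0.5). The mean of Nfkbia went from 30.8 to 17.1 FPKM in WT and from 27.3 to 27.8 in the kidneys labelled Tet2-/-. In the latter the lower ratio thus came with higher subunit levels and not with less Nfkbia. With the abundant Nfkbib added to the inhibitors, an alternative chosen after the data were seen, the differences after IR were smaller, at -0.76 in WT and -1.01 in the kidneys labelled Tet2-/-, still without overlap (exact permutation p = 0.1, adjusted p = 0.2), and the genotypes differed by -0.31 after IR (exact p = 0.2). The ratio compares transcripts and not proteins.

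**Figure D3:**
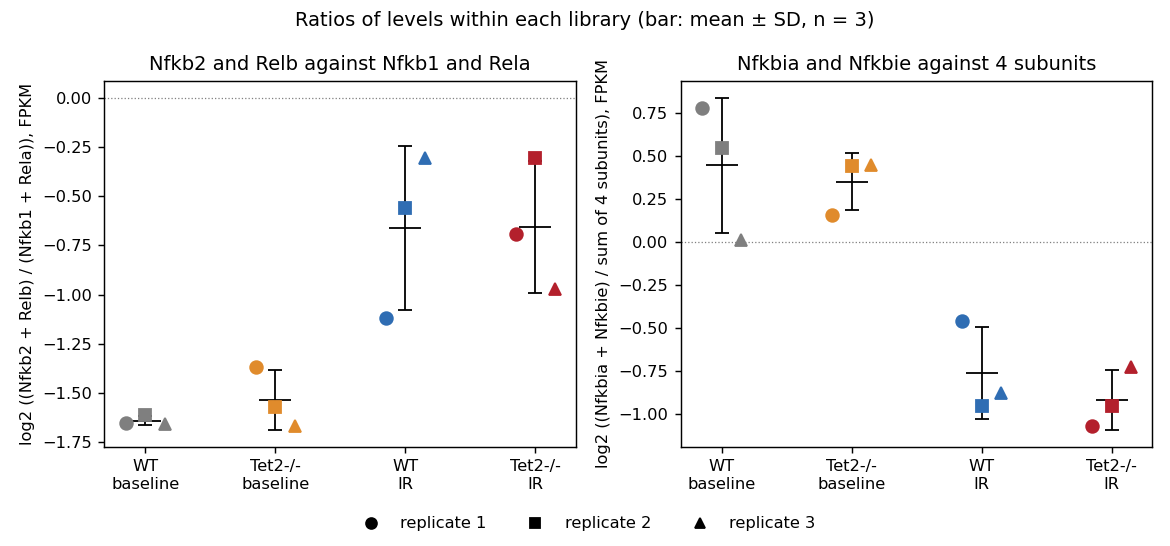
Log2 ratios of FPKM per library (points marked by replicate, bars mean ± SD, n = 3): Nfkb2 plus Relb over Nfkb1 plus Rela, and Nfkbia plus Nfkbie over the 4 subunit genes. In both genotypes the IR libraries lie above the baseline libraries in the first ratio and below them in the second.

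Bcl3 and Nfkbiz encode atypical IκB proteins that act in the nucleus, where they bind dimers of the Nfkb1 or Nfkb2 products and can activate transcription. Both rose after IR in the kidneys labelled Tet2-/-, and neither was called in WT, although Bcl3 had a fold change of similar size there.

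Bcl3 (chr7:20393811-20408104, minus strand) measured 1.84, 2.50 and 1.69 FPKM in WT baseline, 2.74, 2.62 and 2.43 in Tet2-/- baseline, 3.42, 14.7 and 6.55 in WT IR and 10.1, 16.9 and 12.4 in Tet2-/- IR. It varied most between replicates in WT IR, where replicate 2 lay in the range of the libraries labelled Tet2-/-. The log2 fold change after IR was 2.07 (SE 0.19, adjusted p = 0.00029) in the kidneys labelled Tet2-/- and 1.97 (SE 0.50, adjusted p = 0.0823) in WT. The replicate block, which pairs libraries of different mice by number, made the WT value 1.76 and called it (adjusted p = 0.0249).

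Nfkbiz (chr16:55811490-55838754, minus strand), which encodes IκBζ, a cofactor for secondary response genes such as Il6 and Lcn2, measured 3.10, 4.37 and 3.11 FPKM in WT baseline, 4.07, 2.62 and 2.12 in Tet2-/- baseline, 2.50, 6.83 and 4.98 in WT IR and 11.6, 12.03 and 8.01 in Tet2-/- IR. WT IR overlapped baseline on both sides. The log2 fold change after IR was 1.58 (SE 0.24, adjusted p = 0.002) in the kidneys labelled Tet2-/- and 0.38 (SE 0.35, adjusted p = 0.557) in WT. The WT value was 0.11 without WT IR replicate 2 and 0.70 without WT IR replicate 1. Between the genotypes after IR it was 1.04 (SE 0.34, adjusted p = 0.0996), which DESeq2 called (adjusted p = 0.0305). Nfkbid, the remaining atypical IκB gene tested, stayed between 0.328 and 0.805 FPKM except in Tet2-/- IR replicate 2 (1.51 FPKM), and was not called.

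Tnfaip3 (chr10:18720717-18735216, minus strand) removes activating ubiquitin chains and so limits signalling to IKK. It measured 1.13, 0.890 and 0.937 FPKM in WT baseline, 0.911, 0.804 and 0.507 in Tet2-/- baseline, 1.20, 1.78 and 1.48 in WT IR and 1.85, 3.12 and 2.27 in Tet2-/- IR. The IR libraries of each genotype lay above its baseline libraries, and those labelled Tet2-/- above the WT ones. It rose after IR in the kidneys labelled Tet2-/- with a log2 fold change of 1.44 (SE 0.27, adjusted p = 0.00493), and the value in WT was 0.53 (SE 0.22, adjusted p = 0.206).

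Ikbke (chr1:133151179-133176140, minus strand) encodes IKKε, a kinase related to the IKK complex that also serves the interferon response. It measured 1.28, 1.31 and 1.26 FPKM in WT baseline, 1.18, 1.18 and 1.22 in Tet2-/- baseline, 1.28, 1.53 and 1.24 in WT IR and 1.09, 3.502 and 1.51 in Tet2-/- IR. At baseline the 2 genotypes did not overlap in FPKM, yet the fitted difference was -0.015 (adjusted p = 0.971). A single library decided its values after IR: the log2 fold change in the kidneys labelled Tet2-/- was 0.48 (SE 0.38, adjusted p = 0.343) and became -0.065 without replicate 2. The genotype difference after IR likewise went from 0.47 to -0.092.

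Counted over the members, 5 of 10 rose after IR in the kidneys labelled Tet2-/-, Nfkb2, Relb, Bcl3, Nfkbiz and Tnfaip3, and none fell. By the adjusted p alone 7 passed, with Nfkb1 and Rela, as did 43.1% of all genes. Of all 16359 genes tested, 24.3% were called, 12.7% higher and 11.6% lower. The median log2 fold change was 1.21 over the members and 0.04 over all genes. These 5 members were called in each of the 6 fits that left out a library, which called 19.4% to 25.5% of all genes. On log2(FPKM + 1) values in limma, Tnfaip3 had 0.96 (adjusted p = 0.00474), below the fold limit. In 8 of the 10 the IR libraries lay wholly above baseline in FPKM, as did 40.5% of all genes.

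IR in WT kidneys gave 0 called members in edgeR, with 5 at an unadjusted p under 0.05 and 3 called by DESeq2 (Nfkb2, Relb and Bcl3). Among all genes edgeR called 2.35% of 16015 (1.46% higher), 22.7% had an unadjusted p under 0.05, and DESeq2 called 6.32% of the 16985 it tested. The replicate block, which called Nfkb2 and Bcl3, called 6.16% of all genes. The sign was positive for 9 members and negative for Nfkbia, with a median of 0.40 against -0.03 over all genes. Nfkb2, Nfkbie, Bcl3 and Tnfaip3 did not overlap between the groups and were higher, as were 18.9% of all genes. WT IR replicate 1, which had the lowest value of its group for 6 members, mattered here: without it, 3 members and 3.36% of all genes were called, Nfkb2 (1.45, adjusted p = 0.0112), Relb (1.36, adjusted p = 0.0463) and Bcl3 (2.34, adjusted p = 0.0215).

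**Figure D4:**
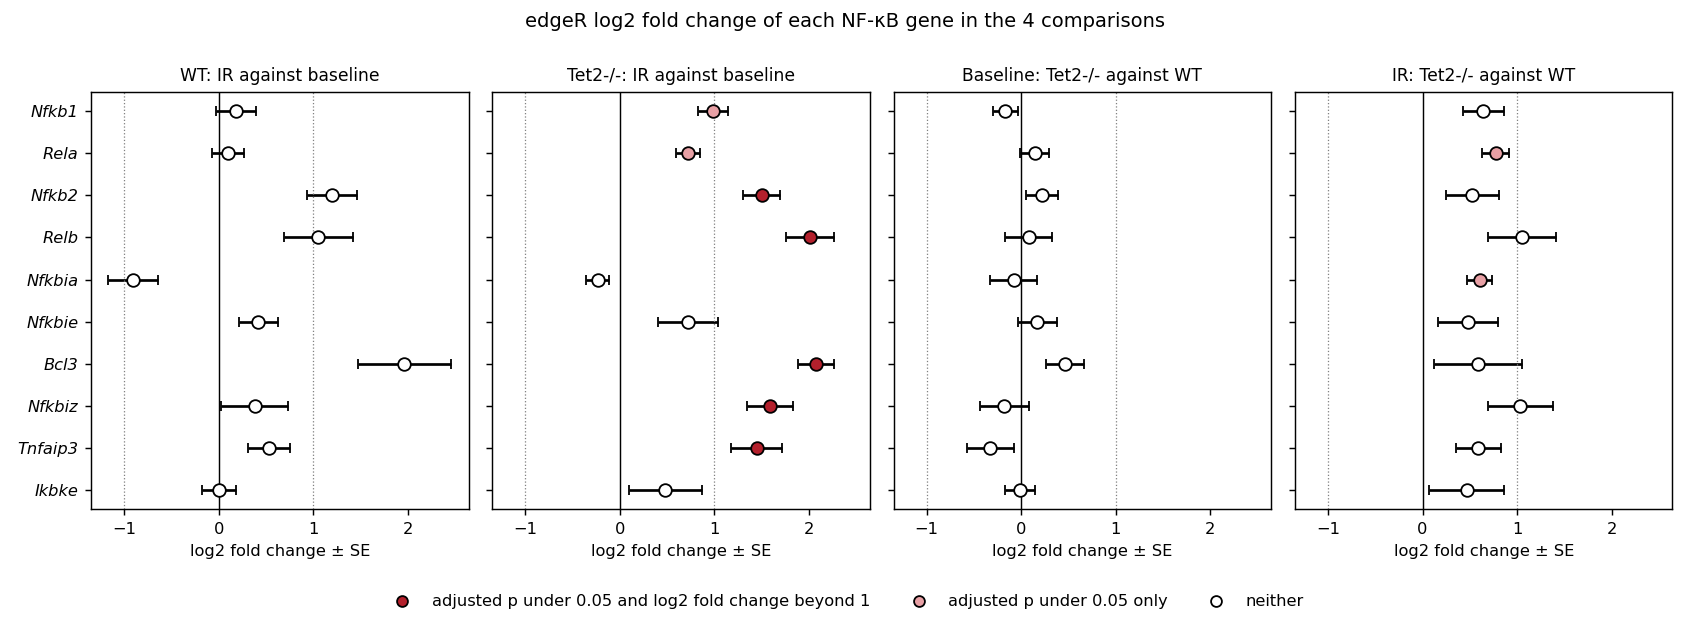
Log2 fold changes of the 10 members with standard errors in the 4 pairwise comparisons (edgeR, 3 libraries against 3). Dark red points are called, pale red points passed the adjusted p alone and white points passed neither, and dark red appears only for IR in the libraries labelled Tet2-/-, for Nfkb2, Relb, Bcl3, Nfkbiz and Tnfaip3.

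At baseline no member separated the genotypes in the tests. edgeR and DESeq2 both called 0 of 10 members, 0 had an unadjusted p under 0.05, and the log2 fold changes ran from -0.33 for Tnfaip3 (SE 0.25, adjusted p = 0.587) to 0.46 for Bcl3 (SE 0.20, adjusted p = 0.43). Over all 16086 genes edgeR called 0.0124%, and 11.8% had an unadjusted p under 0.05. DESeq2 called 2.06% of the 16977 it tested. The FPKM ranges were apart for Ikbke alone, lower in the libraries labelled Tet2-/-, as they were for 16.5% of all genes.

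After IR the level was higher in the libraries labelled Tet2-/- for 10 of 10 members, with a median log2 difference of 0.60 against 0.04 over all genes, but 0 were called by edgeR and 6 had an unadjusted p under 0.05. Of 16186 genes, 6.15% were called (2.3% higher and 3.85% lower), and 9.68% passed the adjusted p alone, as did 2 members, Rela and Nfkbia. DESeq2 called 2, Relb and Nfkbiz, and 10.2% of the 17070 genes it tested, and 28.9% of edgeR's genes had an unadjusted p under 0.05. Leaving out a library took edgeR's share of all genes called to between 1.79% (without WT IR replicate 1) and 5.71%, and called 0 members. The ranges did not overlap for Rela, Relb, Nfkbia, Nfkbiz and Tnfaip3, nor, in this direction, for 22% of all genes.

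Whether the IR effect itself differed between the genotypes was tested as an interaction over the 12 libraries, called at an adjusted p under 0.05. It called 0 members in edgeR and 0 in DESeq2, with 5 at an unadjusted p under 0.05. Of all 16741 genes edgeR called 9.18%, and 27.2% had an unadjusted p under 0.05. DESeq2 called 16.5% of the 17083 it tested. Leaving out Tet2-/- baseline replicate 3 gave edgeR's lowest share, 4.1%, and leaving out WT IR replicate 2 the highest, 12%. All 10 estimates were positive, largest for Nfkbiz at 1.24 (SE 0.47, adjusted p = 0.116), Relb at 0.99 (adjusted p = 0.192) and Tnfaip3 at 0.95 (SE 0.35, adjusted p = 0.112), and smallest for Bcl3 at 0.14 (adjusted p = 0.897). Those of Nfkb1 and Rela were 0.84 (SE 0.27, adjusted p = 0.0747) and 0.66 (SE 0.22, adjusted p = 0.0803). With same-numbered libraries paired within each genotype, an alternative added after the data were seen, Nfkb1 (0.87, adjusted p = 0.0415) and Nfkbiz (1.37, adjusted p = 0.0266) were called, as were 12.6% of all genes. These pairs, too, are of different mice. Without WT IR replicate 2, Nfkb1 and Rela were called, and without WT baseline replicate 3, Nfkbia, with 6.01% of all genes.

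Markers of several other cell types, though not of all, differed between the same groups. All 8 neutrophil markers tested rose after IR in the kidneys labelled Tet2-/-, against 12.7% of all genes. After IR 7 of 8 were higher there than in WT, against 2.3% of all genes. Macrophage markers summed to 33.6 to 68.3 FPKM in WT IR and 62.3 to 227 in Tet2-/- IR. The highest sum was that of replicate 2, with 120 FPKM from Lyz2. Between the genotypes after IR 2 of 11 were called, both higher, against 2.3% of all genes. For IR in the kidneys labelled Tet2-/- 3 macrophage markers rose and 1 fell, against 12.7% and 11.6% of all genes. Of the 8 proximal tubule markers 5 were lower than in WT after IR, against 3.85% of all genes. Podocyte markers summed to 2.10 to 20.4 FPKM in WT IR and 33.9 to 70.0 in Tet2-/- IR, and all 4 rose after IR in the kidneys labelled Tet2-/-, while none was called between the genotypes after IR (3 at an unadjusted p under 0.05). The 6 endothelial markers had positive log2 differences between the genotypes after IR (median 0.95), with 0 called by edgeR and 0 at an unadjusted p under 0.05. In the same comparison fibroblast markers were split, 3 positive and 3 negative, and lymphocyte markers were 5 positive and 3 negative. Neither list had a called gene there (0 of 6 and 0 of 8). The injury markers Havcr1 and Lcn2 together ran from 288 to 1035 FPKM in WT IR and from 2340 to 2716 in Tet2-/- IR, and were lowest in WT IR replicate 1. Between the genotypes after IR 0 of 2 were called, with 1 at an unadjusted p under 0.05. Havcr1 overlapped, at 670 FPKM in WT IR replicate 3 and 652 in Tet2-/- IR replicate 1. The part of these cells and of the extent of injury in the members' levels was not tested. Without WT baseline replicates 2 and 3, rich in adipocyte markers, 1 library was left in that group, and the other group alone supplied the spread. Such fits cannot tell whether the members' results for IR in WT, or between the genotypes at baseline, hold without those libraries.

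The other genes of the pathway, such as kinases, adaptors, ubiquitin enzymes and the remaining subunits and inhibitors, numbered 47 tested after IR. After IR in the kidneys labelled Tet2-/- 6 of 47 rose and 0 fell, or 12.8% called against 12.7% of all genes called higher. By the adjusted p alone 19 were higher, against 22.9% of all genes, and 3 lower, against 20.3%. For 30 the IR libraries lay wholly above baseline in FPKM, against 40.5%, and for 3 wholly below, against 17.9%. Birc3, a ubiquitin ligase that NF-κB induces, went from 1.58 ± 0.255 to 6.14 ± 1.56 FPKM (log2 fold change 1.69, adjusted p = 0.000701). Ikbkg, the regulatory subunit of IKK, went from 4.24 ± 0.0693 to 11.2 ± 2.14 FPKM (1.14, adjusted p = 0.000781). Map3k14, which encodes NIK, the kinase of the alternative pathway, went from 2.27 ± 0.661 to 5.69 ± 1.13 FPKM (1.07, adjusted p = 0.00762). In WT 0 of 47 were called by edgeR and 0 by DESeq2, with 10 at an unadjusted p under 0.05. At baseline 0 of 46 were called between the genotypes by either tool, with 2 at an unadjusted p under 0.05. After IR 1 was higher in the libraries labelled Tet2-/-, Irak3, an inhibitory member of the IRAK family, from 0.307 to 0.965 FPKM (1.58, adjusted p = 0.0499). It falls outside the rule for named genes and was picked out after its value was seen, and without the filter on low counts 0 genes of the list were called.

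The list of known NF-κB target genes held 36. After IR in the kidneys labelled Tet2-/- 18 of 35 tested rose and 3 fell, against 12.7% and 11.6% of all genes. In WT 3 of 31 rose and 0 fell in edgeR, against 1.46% of all genes higher, and DESeq2 called 10, against 6.32%. Lcn2, which encodes an iron-binding protein of injured tubules and neutrophils, rose from 3.10 ± 0.986 to 236 ± 212 FPKM in WT (6.17, adjusted p = 0.0135) and from 2.30 ± 1.08 to 1560 ± 566 in the kidneys labelled Tet2-/- (9.13, adjusted p = 8.15e-05). In WT, the complement gene C3 (3.83, adjusted p = 0.00767) and the adhesion molecule Icam1 (1.35, adjusted p = 0.0471) rose too. The acute phase gene Saa3 and the chemokine Ccl20 were nearly absent at baseline in the libraries labelled Tet2-/-, at 0.0117 and 0.0287 FPKM, and reached 11.6 ± 1.52 and 2.91 ± 2.15 after IR (adjusted p = 7.79e-05 and 0.00208).

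Not all target genes followed. Sod2, the mitochondrial superoxide dismutase, fell from 63.1 ± 2.63 to 29.9 ± 0.866 FPKM after IR in the kidneys labelled Tet2-/- (-1.33, adjusted p = 0.000433), and the complement factor gene Cfb fell from 77.9 ± 17.1 to 39.7 ± 7.07 (-1.22, adjusted p = 0.00573). Between the genotypes after IR 4 of 35 were higher in the libraries labelled Tet2-/-, Saa3, Il6, Mmp9 and Il1b, and C3 and Cfb were lower, against 2.3% of all genes higher and 3.85% lower. Il1b falls outside the rule for named genes and is given to complete the count. DESeq2 called 11 in all, against 10.2% of all genes. At baseline edgeR called 0 of 32, with 3 at an unadjusted p under 0.05, and DESeq2 called 2, against 2.06% of all genes. C3 measured 37.5 ± 9.11 FPKM in WT IR and 12.2 ± 3.40 in Tet2-/- IR (-1.73, adjusted p = 0.0155). Cfb measured 85.6 ± 2.09 and 39.7 ± 7.07 (-1.19, adjusted p = 0.0192). The median log2 fold change of the list was 0.42 and 1.03 after IR in WT and in the kidneys labelled Tet2-/-, 0.10 between the genotypes at baseline and 0.69 after IR.

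**Figure D5:**
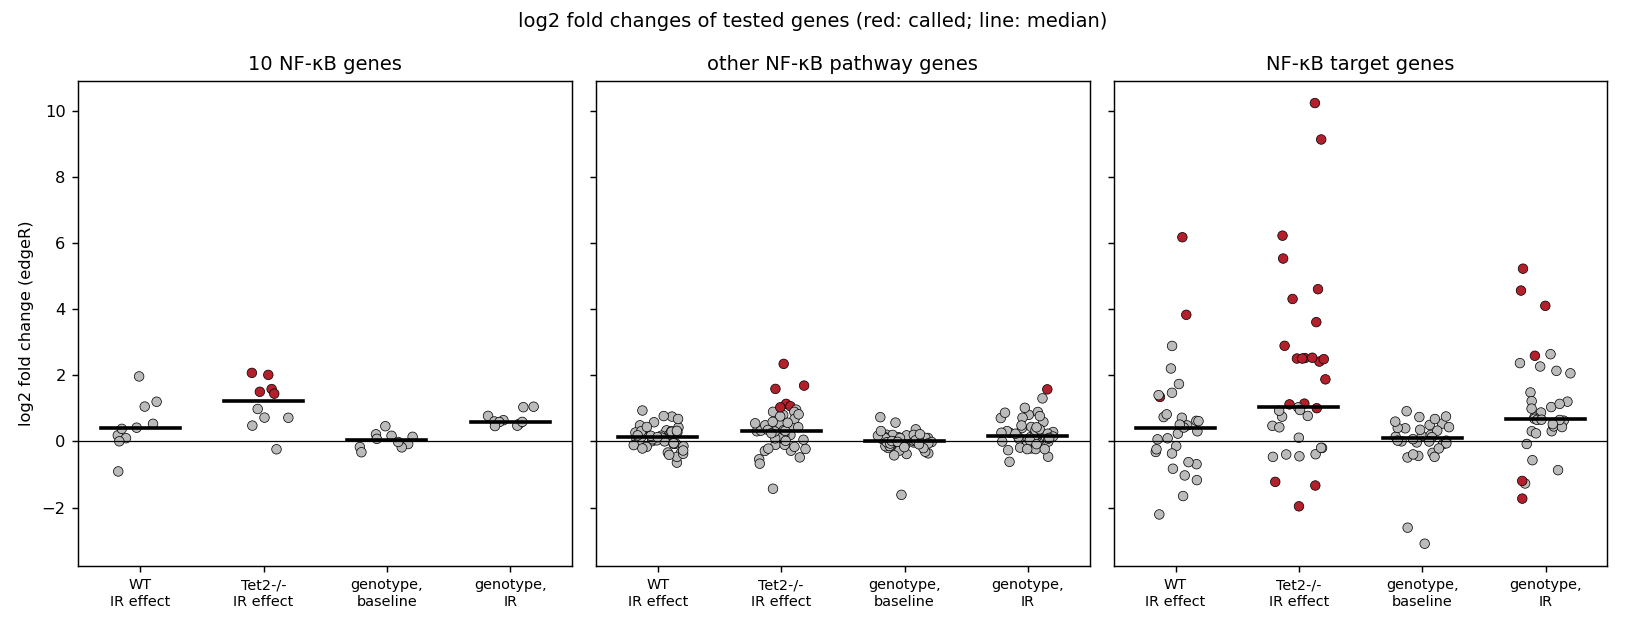
Log2 fold change of each tested gene (edgeR) among the 10 members, the other pathway genes and the target genes in the 4 pairwise comparisons, red where called, with the median as a line. For IR in the libraries labelled Tet2-/- the medians were 1.21 for the members and 1.03 for the target genes.

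The mean profile of the members, centred log2 FPKM averaged over the 10, ran from -0.66 to -0.26 at baseline, from -0.32 to 0.50 in WT IR and from 0.60 to 1.24 in Tet2-/- IR. Nfkb1 (root mean square distance 0.221 in log2) and Tnfaip3 (0.228) lay closest to it, and Bcl3 (0.636) and Nfkbia (0.688) farthest. Among 12203 other genes with a mean of at least 1 FPKM, the closest over the 12 libraries were St14 (0.139), Sertad1 (0.142), Rcc2 (0.147), Unc13b (0.149) and Hap1 (0.155).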

How the data were processed

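Total RNA of mouse kidney was sequenced in 12 libraries, 3 per group, grouped by the labels. The authors used STAR for alignment (mm9) and HOMER for counting on RefSeq transcripts. The authors deposited the resulting expected counts, not normalized, and FPKM of the same transcripts made by the authors (versions not given in the sources used here). The deposited counts rise in steps of 0.5, with 38.7% not whole, where the design had assumed whole counts, so they were rounded first. The files hold 34600 transcripts of 24421 symbols, and for the 5569 symbols with several transcripts the one with the highest total was used. Library totals ran from 51007366 to 107969888 counts. The members had at least 202.5 counts in every library, while genes at low levels, such as Rel (6.5 to 16 counts in Tet2-/- baseline), carry a large counting error. No libraries were identical.

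Counts were tested in R 4.3.3 with edgeR 4.0.16 (TMM, its filter on low counts, quasi-likelihood test, Benjamini-Hochberg over all genes tested), on the 6 libraries of each comparison or all 12 for the interaction. Calls needed a log2 fold change beyond 1 in either direction besides an adjusted p under 0.05 (the adjusted p alone for the interaction). DESeq2 1.42.0, limma 3.58.1 on log2(FPKM + 1) and log2(FPKM + 0.1), other scalings and filters, a replicate block, all transcripts and left-out libraries served as alternatives. Ratios within libraries were compared by exact permutation tests, two-sided. Sequences were read with pysam 0.24.0 in Python 3.11.15 from the NCBIM37 genome, the build of the files: 20533 of 34600 transcripts start at an annotated start as written and 507 after adding 1, so coordinates count from 1. Figures were drawn with matplotlib 3.10.9.

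The members, the gene lists and the rules were chosen with earlier results of these data known. All members are named, with Rel, Nfkbib and Nfkbid. Of the other lists, up to 3 called genes per direction with the largest fold change, a mean of at least 1 FPKM in either group and no overlap are named. Irak3 and Il1b are named outside this rule. Within a genotype, the deviations of same-numbered baseline and IR libraries from their group means were correlated (0.349, 0.349 and 0.344 in WT, 0.12, 0.35 and 0.202 in Tet2-/-), although they come from different mice per the study's methods, so the pairing rests on these correlations alone. The correlations were taken from these same data and, with 3 libraries per group, depend on each other, so the pairing is no part of the design. Calls made with the block are given as alternatives only. Between genotypes the deviations of same-numbered libraries were not correlated in every pair (-0.173 to 0.0524 at baseline, -0.000229 to 0.303 after IR). On simulated counts with a log2 fold change of 2, edgeR recovered 157 of 200 changed genes for IR in WT with 12 false among 15883, 156 of 194 for IR in Tet2-/- with 7 among 16233, 179 of 199 at baseline, 141 of 197 after IR and 133 of 199 in the interaction. On these counts DESeq2 made more false calls: 54 beside 178 recovered for IR in WT, 38 beside 170 for IR in Tet2-/-, 32 beside 186 at baseline, 54 beside 171 after IR and 60 beside 154 in the interaction. The counts were drawn with dispersions that edgeR estimated, and 200 genes were changed, equally up and down. They therefore give no even ranking of the tools and no rate for smaller changes or for comparisons in which many more genes differ.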

Additional observations from a re-analysis of the deposited data

How the results depend on the processing

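For IR in the kidneys labelled Tet2-/- 5 to 6 members were called under every alternative with a fold limit (Nfkb1 the member gained, Tnfaip3 lost in limma on log2(FPKM + 1)), and 7 by the adjusted p alone. These alternatives called 13.8% to 26% of all genes, and the adjusted p alone 43.1%. For IR in WT kidneys, against 0 members, DESeq2 called 3, the replicate block 2, the fit of all 12 libraries 2, and leaving out a library 0 to 3. In the same order they called 6.32%, 6.16%, 3.77% and 0.536% to 3.36% of all genes. Between the genotypes after IR, DESeq2 called 2, the fit of all 12 libraries 1 (Relb), the adjusted p alone 2, and leaving out a library 0 to 0. The shares of all genes called were 10.2%, 9.52%, 9.68% and 1.79% to 5.71%. The interaction called 1 member in limma on log2(FPKM + 1) and 1 on log2(FPKM + 0.1) (Rela), 1 with the replicate block over both genotypes (Nfkb1), 2 with the block within genotype, and 0 to 2 without a library. Of all genes these called 9.95%, 10.8%, 11%, 12.6% and 4.1% to 12%, so 1 of 10 members is near the share over all genes. The replicate block changed no other call of a member. Without a library, the differences of the subunit balance after IR ran from 0.80 to 1.21 in WT and 0.70 to 1.03 in Tet2-/-, and those of the inhibitor balance from -1.42 to -1.04 and -1.37 to -1.19. With Nfkbib added to the inhibitors these were -0.76 in WT and -1.01 in Tet2-/-. The small genotype differences changed sign in 2 cases: the subunit balance after IR ran from -0.22 to 0.18 and the inhibitor balance at baseline from -0.31 to 0.072.

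Over all genes, calls for IR in WT went from 376 to 1073 in DESeq2, 987 with the replicate block, 631 in the fit of all 12 libraries, 236 in limma on log2(FPKM + 1) and 87 to 548 without a library. At baseline DESeq2 called 350 genes against 2, and after IR 1747 against 996. Without a library the calls after IR ran from 294 to 942, and those of the interaction from 697 to 2044 against 1536. Library sizes alone in place of TMM moved the median of all genes after IR in Tet2-/- from 0.04 to 0.27 and the calls from 2078 higher and 1896 lower to 2860 and 1397.

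Signs changed only for values near 0 or decided by 1 library, none of them called. For IR in WT, Ikbke was -0.0087 with the filter at a mean FPKM of 1 and -0.0021 without WT baseline replicates 2 and 3. For IR in Tet2-/-, Nfkbia was 0.018 in limma on log2(FPKM + 1) and 0.018 on log2(FPKM + 0.1). At baseline, Relb was -0.0050 and -0.0084 on these scales, and Nfkbiz was 0.015 without WT baseline replicates 2 and 3. With a library left out in turn, the values for IR in WT ran from -0.055 to 0.31 for Nfkb1, -0.024 to 0.22 for Rela and -0.033 to 0.067 for Ikbke, lowest without WT IR replicate 2. For IR in Tet2-/- Ikbke ran from -0.065 to 0.75. At baseline Relb ran from -0.090 to 0.25, Nfkbia from -0.34 to 0.092, Nfkbiz from -0.46 to 0.0097 and Ikbke from -0.039 to 0.010. After IR Ikbke ran from -0.092 to 0.76. In the interaction Nfkbie ran from -0.072 to 0.55 and Ikbke from -0.11 to 0.79, lowest without Tet2-/- IR replicate 2, and Bcl3 from -0.23 to 0.80, lowest without WT IR replicate 1. The causes were not tested.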
